A study of Homo sapiens with 1 sample.

Results

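The miR-30 family was described on 1 microRNA (miRNA) array of DLD-1 cells. Its 8 members were chosen by name. They are the 5 guides miR-30a-5p, miR-30b-5p, miR-30c-5p, miR-30d-5p and miR-30e-5p, which form the 5p arms of their hairpins, and the 3p arms miR-30a-3p, miR-30d-3p and miR-30e-3p. All 8 were found among the 2549 human miRNAs of the array, where 19 probes and 160 spots measured them. DLD-1 is a human colorectal carcinoma cell line, and the cells carried the empty control plasmid pLVX-NC. The study asked whether the circular RNA circLONP2 alters miRNA processing, and cells with circLONP2 overexpression or depletion were not analysed here. With 1 array of 1 condition there was no biological replicate, so no difference between conditions could be tested and no p-value is given. All errors are between spots of the same array.

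A miRNA is cut from a hairpin transcript by Drosha with its partner DGCR8, and then by Dicer. One arm, the guide, is usually loaded into an Argonaute protein, and bases 2 to 8 of the guide, the seed, largely decide which mRNAs it represses. The miR-30 guides share a seed, and the family is known for keeping epithelial and renal cells differentiated, in part by repressing the transcription factor SNAI1, a driver of epithelial-mesenchymal transition.

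Guide sequences are shown because the guides of miR-30a, miR-30c and miR-30e were alike in sequence and unlike in brightness. Of the 8 members, 5 had an entry in the RefSeq miRNA table (build GRCh38.p14). miR-30b-5p, miR-30d-5p and miR-30d-3p had none, so their sequences were not compared. The seed is in capitals, and each sequence runs 5′ to 3′.
hsa-miR-30a-5p: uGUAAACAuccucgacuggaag
hsa-miR-30e-5p: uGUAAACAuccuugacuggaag
hsa-miR-30c-5p: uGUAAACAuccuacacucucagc
hsa-miR-30a-3p: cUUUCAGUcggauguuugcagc
hsa-miR-30e-3p: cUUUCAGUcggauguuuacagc
Counted from 1 at the 5′ end, miR-30a-5p and miR-30e-5p differed at 1 of 22 bases, C13U. miR-30c-5p shared the 12 bases at its 5′ end with both and differed from each at 5 of the 22 bases compared. The 3p arms of miR-30a and miR-30e also differed at 1 base, G18A. No other human miRNA that was on the array and in the table had either seed.

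MIR30E lay on the + strand at chr1:40754355-40754446 and MIR30C1 at chr1:40757284-40757372, also on the + strand, with 2837 bases between them. Both hairpins were inside the span of NFYC, which encodes a subunit of the transcription factor NF-Y. MIR30C2 at chr6:71376960-71377031 and MIR30A at chr6:71403551-71403621 were on the - strand, 26519 bases apart. The RefSeq table used gave no other gene whose span held them, which does not show that they lie outside genes. Both MIR30C1 and MIR30C2 give the same miR-30c-5p, which the array could not divide between them.

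The scanner software flagged 1448 of the 2549 human miRNAs (56.8%) as Detected. No spot was saturated, and outlier spots, 4.06% of those for human miRNAs, were not used. Brightness is the background-subtracted brightness of a spot in arbitrary units. Signal is the mean log2 brightness of a miRNA, over spots and then probes, set against a reference, the 75th percentile of detected probes, which was a brightness of 248.8. Of the 1000 negative control spots, the 99th percentile, below called the control level, was 12.5, and it was 5.58 without 1 control probe that stood apart from the other control probes, a choice made after the values were seen. Different probes bind with different strength, so the order of members below is an order of brightness and not of molecule numbers. As a check on the label, 7 of 9 epithelial and intestinal marker miRNAs were detected, with miR-141-3p the brightest at a signal of 3.59, while miR-192-5p and miR-194-5p were not. Of the markers of other cells, 3 of 6 for blood cells, 2 of 6 for stroma and endothelium and 3 of 7 for muscle, brain and liver were detected. The median signal was -2.87 over the epithelial and intestinal markers, undetected ones included. It was -6.66, -5.18 and -6.47 over the markers of other cells, in the same order. All kept spots of miR-126-3p, an endothelial marker, miR-145-5p, a stromal marker, and miR-124-3p, a neuronal marker, were well above background. Their signals, -2.09, -2.75 and -1.73, were above the median of the epithelial and intestinal markers. For miR-206, a muscle marker, 17 of 20 spots were well above background. The part of such probe signal in the values below was not tested.

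Of the miR-30 members, all 5 guides and miR-30d-3p were detected, 6 of 8, as were 56.8% of human miRNAs. By the software's flag for positive and significant spots, all 8 had a probe with 0.5 or more of its spots called, as 68.9% of human miRNAs did. The stricter flag, well above background, was met in a share of 0.5 or higher of the spots of some probe for 4 members (49.9% of human miRNAs), and in every spot of some probe for 3 (45.8%). The same 3 had every kept spot of every probe well above background, against 37.3% of all human miRNAs. They were the guides of miR-30d, miR-30e and miR-30a. No member had a signal above the 75th percentile of detected probes, as 11.3% of all human miRNAs did. The median signal was -2.55 over the 5 guides and -6.04 over the 3p members, of which 2 were not detected, beside -2.06 over detected human miRNAs and -4.27 over all of them.

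The guides of miR-30d, miR-30e and miR-30a stood clear of the background, while those of miR-30c and miR-30b lay near it. miR-30d-5p was the brightest member, with an average of 243.1 ± 15.3 (n = 20 spots, SD) and a signal of -0.04. Its spots ran from 215.6 to 268.4, and its 2 probes had means of 231.0 and 255.2. It ranked 295 of the 1448 detected miRNAs, and 79.6% of these had a lower signal. miR-30e-5p followed with an average of 139.7 ± 9.09 (n = 20 spots, SD), a signal of -0.84 and rank 451. Its probe means were 134.8 and 144.5. miR-30a-5p averaged 42.7 ± 5.21 (n = 19 spots, SD), a signal of -2.55 and rank 833, and 42.5% of the detected miRNAs had a lower signal. Its probes gave 42.7 and 42.8. In all 3 of these guides the probes agreed closely, and no spot of one reached the range of the next.

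miR-30c-5p and miR-30b-5p carried the Detected flag but lay near the background. The mean brightness of miR-30c-5p was 11.4 ± 3.98 (n = 18 spots, SD), its signal was -4.50, and 0 of its 18 kept spots were well above background. Its probes had means of 8.91 and 14.6. miR-30b-5p averaged 10.5 ± 6.47 (n = 20 spots, SD), a signal of -4.87 and 3 spots well above background. Its 3 probes disagreed, with means of 3.32, 11.9 and 17.2. For miR-30c-5p the brightest probe stood 1.17-fold over the control level, and for miR-30b-5p 1.38-fold. The same ratio was 20.4 for miR-30d-5p, 11.6 for miR-30e-5p and 3.42 for miR-30a-5p. Without the control probe that stood apart, the ratio was 2.62 for miR-30c-5p and 3.08 for miR-30b-5p.

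**Figure D1:**
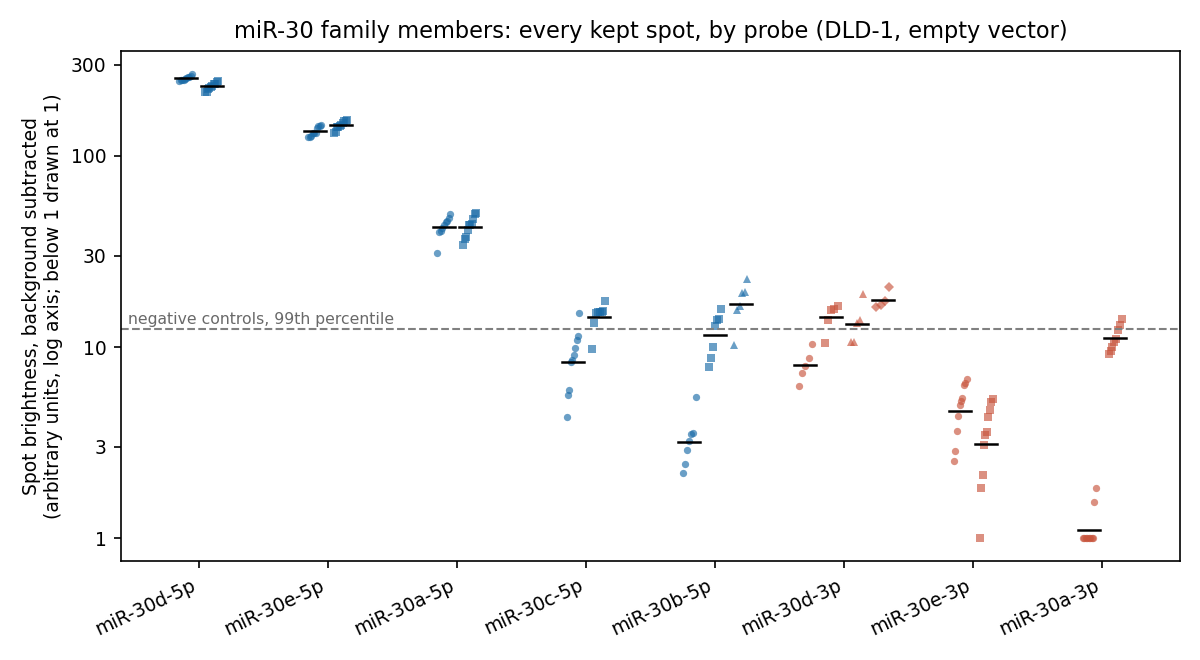
Each point is 1 spot and each column 1 probe (points are drawn by probe with different markers, horizontal bars are geometric means over spots). The y axis is background-subtracted brightness on a log axis, blue marks 5p guides and red marks 3p members, and the dashed line is the control level (12.5). The guides of miR-30d, miR-30e and miR-30a stand above the line in separate bands, and the other 5 members lie around or below it.

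Between neighbours in this order, miR-30d-5p exceeded miR-30e-5p by 0.80 on the log2 scale (standard error 0.02 from spots), miR-30e-5p exceeded miR-30a-5p by 1.72 (standard error 0.05), and miR-30a-5p exceeded miR-30c-5p by 1.95 (standard error 0.11). The last of these steps is against a guide with no spot well above background. Against the lowest mean of any probe on the array with every spot well above background, 20.4, miR-30a-5p was at least 2.08-fold brighter. In each of these 3 steps the dimmest probe of the brighter guide was above the brightest probe of the dimmer one. miR-30c-5p exceeded miR-30b-5p by 0.37 (standard error 0.13), which was within the spread of their probes. The order of the last pair was turned when the brightest probe of each miRNA was taken, and the pair was tied in the deposited normalized values. All 3 probes of miR-30b-5p were below 20.4, so the brightest guide, miR-30d-5p, was at least 11.9-fold brighter than the dimmest. The single-base difference C13U between miR-30a-5p and miR-30e-5p went with a 3.29-fold difference in brightness, and cross-hybridization between the guides was not tested.

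**Figure D2:**
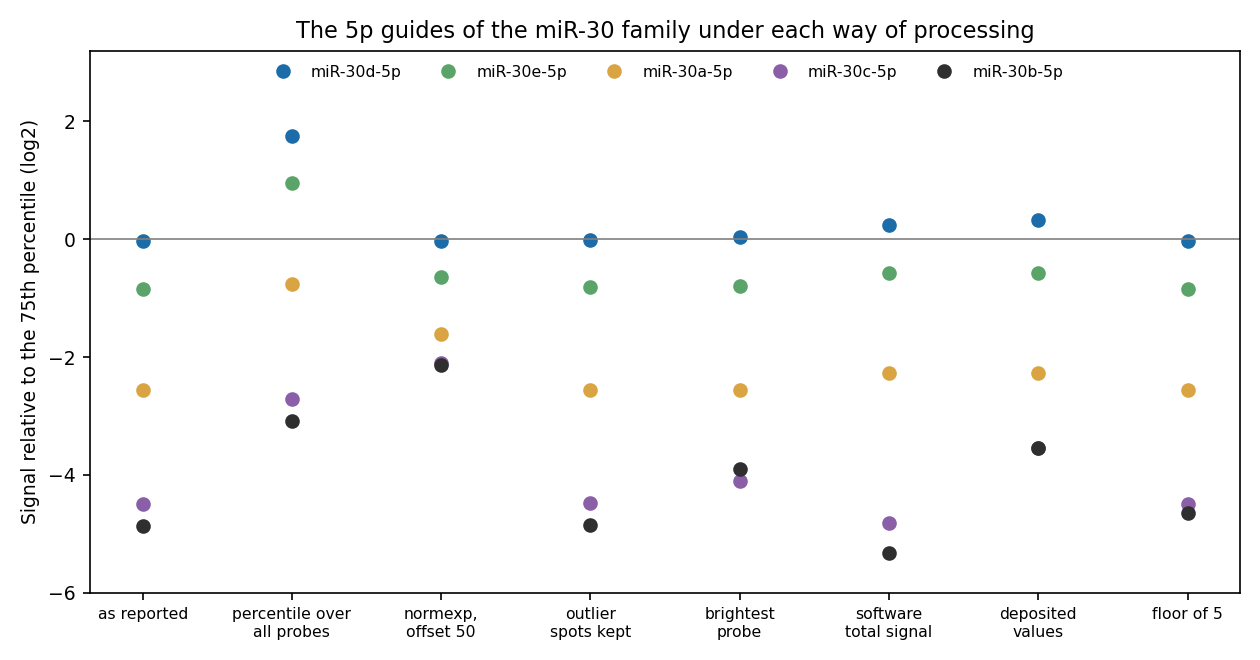
The y axis is the signal of each 5p guide relative to the 75th percentile (log2), and each column on the x axis is 1 way of processing the array, with the values as reported at the left. miR-30d-5p, miR-30e-5p and miR-30a-5p keep their order in every column, while miR-30b-5p and miR-30c-5p change places for the brightest probe and coincide in the deposited values.

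**Figure D3:**
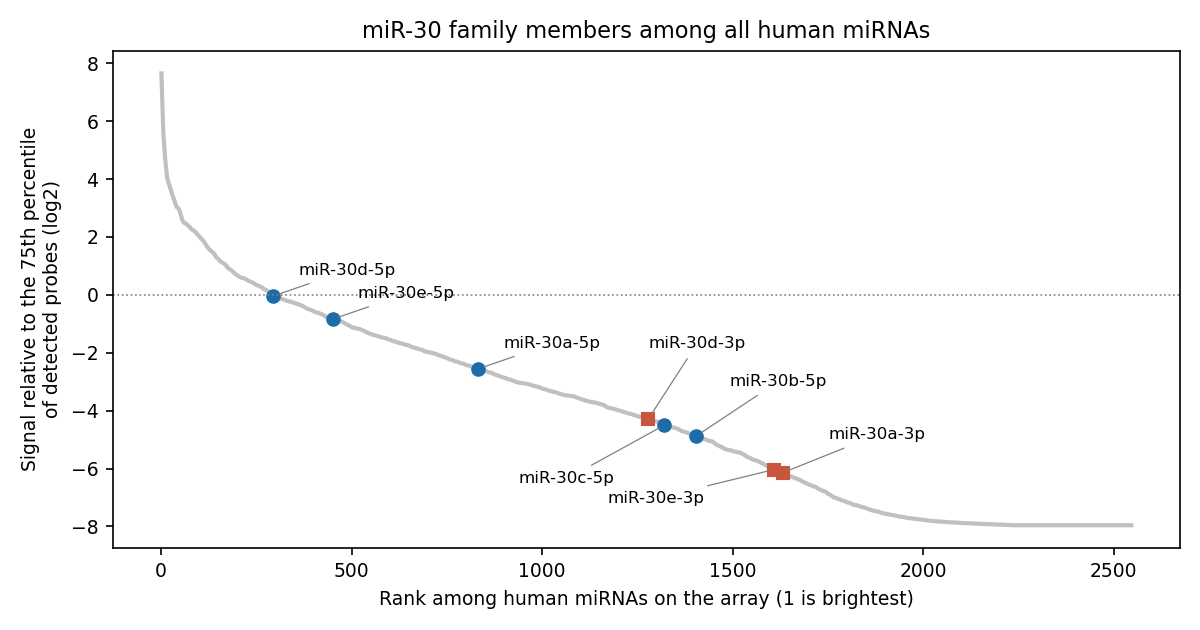
The grey curve is the signal of all human miRNAs (log2, set against the 75th percentile of detected probes) against their rank, blue circles are the 5p guides and red squares the 3p members. miR-30d-5p sits at rank 295, next to the percentile itself. miR-30b-5p, miR-30c-5p and the 3p members lie from rank 1279 to rank 1631 of the 2549 human miRNAs. The places there of the undetected miR-30a-3p and miR-30e-3p depend on the floor and on the probe taken.

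All 3 of the 3p members were dim. miR-30d-3p was detected with an average of 13.2 ± 4.15 (n = 19 spots, SD), a signal of -4.28 and 2 spots well above background. Its 4 probes had means from 8.13 to 17.7. miR-30e-3p was not detected. Its mean brightness was 4.07 ± 1.84 (n = 20 spots, SD), with 0 spots well above background and probe means of 3.27 and 4.86. miR-30a-3p was not detected either, and its mean brightness was 4.78 ± 6.17 (n = 18 spots, SD). That spread came mostly from its probes, one at -0.39 ± 1.71 (n = 10 spots, SD) and the other at 11.2 ± 1.75 (n = 8 spots, SD), with 0 spots of either well above background. Although miR-30a-3p and miR-30e-3p share all but 1 base, their brightest probes differed, 11.2 against 4.86, and both were below the control level. Without the control probe that stood apart, the brightest probe of miR-30a-3p was 2.01-fold over the control level, that of miR-30d-3p 3.17-fold, and that of miR-30e-3p remained below it, at 0.871.

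The arms of a hairpin are cut from the same transcript, and the guide is the arm that is usually kept. The 5p arm was the brighter one in miR-30d, miR-30e and miR-30a. No probe of their 3p arms averaged above 20.4, so the ratios are given as bounds against that brightness. The 5p arm was at least 11.9-fold brighter for miR-30d, at least 6.83-fold for miR-30e and at least 2.08-fold for miR-30a. On the log2 scale, the measured difference in signal was 4.25 for miR-30d (standard error 0.06 from spots). It was 5.20 for miR-30e (standard error 0.15) and 3.59 for miR-30a (standard error 0.08). These differences depend on the processing, and for miR-30e and miR-30a, whose 3p arms were not detected, on the brightness floor of 1. The standard errors cover neither the spread between probes nor the effect of the floor. A 5p arm over 2-fold brighter than its 3p arm was common on the array, in 57.7% of the 631 hairpins with at least 1 detected arm. This share is of measured differences, arms at the floor included, and not of bounds.

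The remaining 3p arms of the family, which were no members, went the other way. The 3p sequences of miR-30c are shown because both arms of miR-30c were measured with unequal brightness.
hsa-miR-30c-1-3p: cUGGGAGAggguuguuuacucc
hsa-miR-30c-2-3p: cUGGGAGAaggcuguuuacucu
miR-30c-1-3p comes from MIR30C1, whose hairpin is not shown. The hairpin of MIR30C2, the source of miR-30c-2-3p, follows, with that of MIR30A for comparison. Mature arms are in capitals, the 5p arm at the left.
MIR30C2: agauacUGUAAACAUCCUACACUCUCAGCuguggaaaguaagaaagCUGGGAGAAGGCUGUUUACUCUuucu
MIR30A: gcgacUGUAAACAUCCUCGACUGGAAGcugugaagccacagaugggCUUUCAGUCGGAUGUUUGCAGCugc
miR-30c-2-3p averaged 109.4 ± 53.7 (n = 20 spots, SD), with 20 spots clear of the background, and had a signal of -1.38. Its probe means were 61.0 and 157.8. The signal of miR-30c-5p minus that of miR-30c-2-3p was -3.12 on the log2 scale (standard error 0.13 from spots), and the 3p arm was at least 4.69-fold brighter against the same lowest probe. A 3p arm over 2-fold brighter than its 5p arm was seen in 31.2% of hairpins with at least 1 detected arm, again by measured differences. The miR-30c hairpins are not among those counted, because arms were paired by matching names. Both probes of miR-30c-2-3p were brighter than both of miR-30c-5p.

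miR-30c-1-3p and miR-30b-3p were detected by some of their probes. The 4 probes of miR-30c-1-3p had means of -2.25, 21.3, 28.8 and 111.6, and those of miR-30b-3p had means of 5.51 and 40.1. In each case the dimmest probe was below the average of the guide, and the averages over probes, with signals of -3.97 and -4.17, gave no fold because both arms were then below the lowest probe with every spot well above background. By the brightest probe, miR-30b-3p exceeded miR-30b-5p (40.1 against 17.2) and miR-30c-1-3p exceeded miR-30c-5p (111.6 against 14.6). The 6 hairpins were thus split, with the 5p arm brighter for miR-30a, miR-30d and miR-30e and the 3p arm brighter, by its brightest probe, for miR-30b and both miR-30c hairpins.

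**Figure D4:**
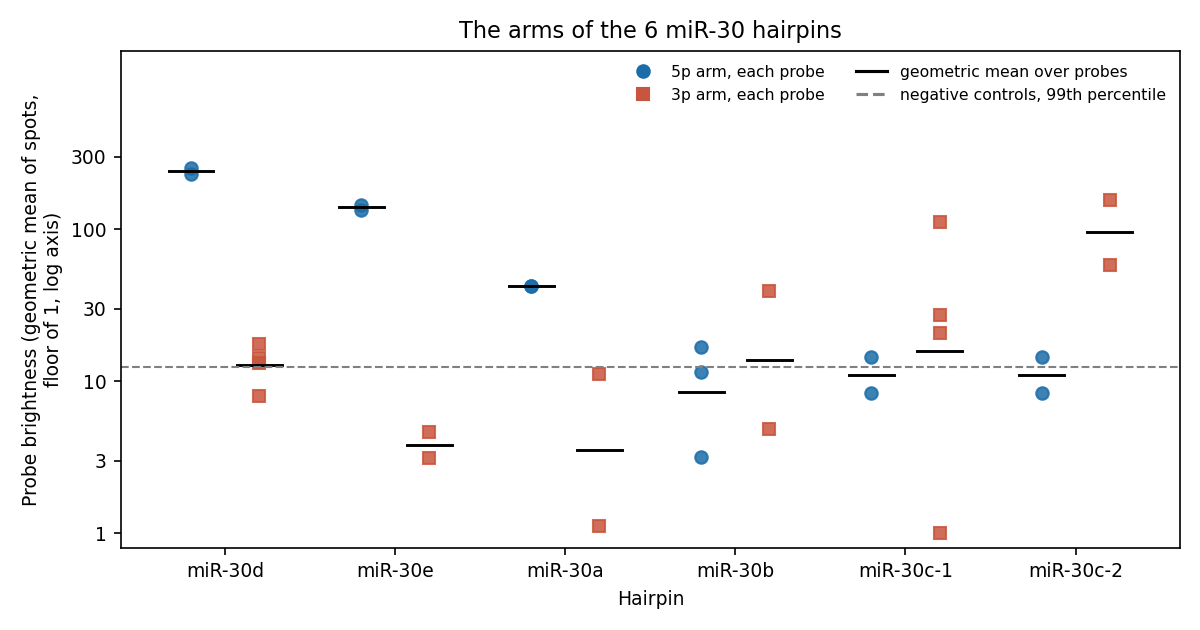
For each of the 6 hairpins on the x axis, blue circles are the probes of the 5p arm and red squares those of the 3p arm, as the geometric mean of their spots on a log axis with a floor of 1. Black bars are geometric means over probes, the dashed line is the control level (12.5), and miR-30c-5p is drawn under both of its hairpins. The 5p arm is higher at the left in miR-30d, miR-30e and miR-30a, and the 3p arm is higher by its brightest probe in the others.

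Probes of the guides of miR-30d, miR-30e and miR-30a agreed, whereas those of the other arms of the family differed more. From the dimmest to the brightest probe the difference was 0.002 on the log2 scale for miR-30a-5p, 0.10 for miR-30e-5p and 0.14 for miR-30d-5p. The median over the 1447 detected human miRNAs with 2 or more probes was 0.36, and 24.7% of them exceeded a 2-fold difference. The difference was 0.58 for miR-30e-3p, 1.14 for miR-30d-3p and 3.33 for miR-30a-3p among the 3p members. Among the remaining arms it was 0.78 for miR-30c-5p, 1.41 for miR-30c-2-3p, 2.39 for miR-30b-5p, 3.03 for miR-30b-3p and 6.80 for miR-30c-1-3p. Only 0.346% of the detected miRNAs had a smaller difference than miR-30a-5p, and 99.7% had a smaller one than miR-30c-1-3p. The values of miR-30c-1-3p and miR-30a-3p each rest on 1 probe at or close to the floor of 1.

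Base composition was set beside these arms after their values were seen. miR-30c-5p had 2 G in 23 bases, whereas miR-30c-2-3p had 7 and miR-30c-1-3p 8 in 22 bases. Both arms of miR-30e had 5 G, and miR-30a-5p had 5 against 6 in miR-30a-3p, so that in miR-30a the arm with more G was the dimmer one. Over the 2248 human miRNAs with a sequence in the table, Spearman's rho between the number of G and the signal was 0.57, as a description across miRNAs that share 1 array. The median signal was -7.53 for miRNAs with 0 to 3 G, -5.95 with 4 to 6, -3.05 with 7 to 9 and -0.55 with 10 or more. In the same order, 30.7%, 43.9%, 72.2% and 94.7% of them were detected. Both arms of miR-30a and of miR-30e fell in the class of 4 to 6 G. In 79.3% of the 498 hairpins whose arms differ in G and have at least 1 detected arm, the arm with more G was the brighter one. The part of base composition in the brightness of the miR-30 arms was not tested.

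Other seed families were also uneven. In the miR-29 guides, all measured above background, the brightest, miR-29a-3p, was 9.57-fold brighter than the dimmest, miR-29c-3p. In the other families the dimmest guide was at background, and the ratio is a bound against 20.4. It was at least 50.1-fold among the 9 let-7 guides, where miR-98-5p was not detected, and at least 5.26-fold between the 2 miR-26 guides, where miR-26b-5p was not detected, beside at least 11.9-fold among the miR-30 guides. let-7 and miR-26 miRNAs are known for restraining growth, and miR-29 for repressing collagen genes. Every kept spot was well above background in 5 of 9 let-7, 3 of 3 miR-29 and 1 of 2 miR-26 guides, against 3 of 5 miR-30 guides. The median signal of the miR-30 guides, -2.55, was close to that of let-7, -2.64, below that of miR-29, -1.37, and above that of miR-26, -3.07, which is the mean of 1 detected and 1 undetected guide. With 1 array no difference between families was tested.

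In the log2 values the authors deposited, 3 of the 8 members stood above the ties at the low end. These were miR-30d-5p at 6.19, miR-30e-5p at 5.28 and miR-30a-5p at 3.59. Of the 2549 human miRNAs, 1101 tied at the lowest value and 183 at the next lowest. miR-30b-5p, miR-30c-5p and miR-30d-3p shared the value 2.33 with other miRNAs, 183 in all, and miR-30a-3p and miR-30e-3p held the lowest value, 2.32, with all other undetected miRNAs. The deposited values therefore give no order within these groups of 3 and 2.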

How the data were processed

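Total RNA of DLD-1 cells with the empty control plasmid was hybridized to 1 miRNA array, grouped from the sample labels. The authors deposited the scanner output of a 1-colour Cy3 array, which holds linear spot intensity values with local background subtracted and flags set by Agilent Feature Extraction 11.0.1.1. They also deposited log2 values, quantile normalized in GeneSpring GX per the methods. The arrays normalized together are not given in the sources used here.

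Control and outlier spots were not used, values under 1 were raised to 1, and the mean of log2 values was taken over spots and then probes. The 75th percentile over probes of detected miRNAs with 0.5 or more of their spots well above background was subtracted. Members and lists were chosen with earlier results of these data known. The text names the 8 members, the other 3p arms of the family, and comparison lists set by name. Alternatives covered detection, percentile, normexp correction (limma 3.58.1, offset 50, on median spot signals), outliers, probe summary, total signal and deposited values. A floor of 5 was added after the values were seen. Sequences came from RefSeq tables. Python 3.11.15, numpy 2.4.6 and pandas 2.3.3 were used, and the summaries were tested on simulated data. Array number limits the precision.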

Additional observations from a re-analysis of the deposited data

How the results depend on the processing

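The 6 detected members were 3 when a probe with every spot well above background was needed, and stayed within 1.5 times of 6 under both other criteria. The median signal of the 5p guides, -2.55, became -0.76 with the percentile over all probes, -1.60 after normexp correction, and -2.27 both from the total signal and from the deposited values. That of the 3p members, -6.04, became -4.25, -2.24, -9.57 and -3.54 in the same order, -4.48 with the brightest probe and -5.06 with a floor of 5. For miR-30a the 5p arm exceeded the 3p arm by 3.59, which became 0.64 after normexp correction, 1.93 with the brightest probe, 7.30 from the total signal, 1.27 from the deposited values and 2.51 with a floor of 5. The 4.25 of miR-30d became 2.04 after normexp correction, 3.85 with the brightest probe and 3.86 from the deposited values, and the 5.20 of miR-30e became 1.63 after normexp correction, 9.004 from the total signal and 2.96 from the deposited values. The brightest minus the dimmest guide, 4.84 against a guide near background, became 2.11 after normexp correction, 4.14 with the brightest probe, 5.56 from the total signal and 3.86 from the deposited values. The 5p arm stayed the brighter one for these 3 hairpins under every alternative run. The signal of miR-30d-5p, -0.04, turned positive at 1.75 with the percentile over all probes, 0.037 with the brightest probe, 0.23 from the total signal and 0.32 from the deposited values, and that of miR-30e-5p turned to 0.95 with the percentile over all probes. The normexp offset of 50 narrows ratios, and the software gives every undetected miRNA a total signal of 0.1. Otherwise the cause was not tested. A value was called moved when it changed by more than the SD between spots. For miR-30b-5p, miR-30c-5p and the 3p members, signal close to that of negative controls limits any order among them. No paired analysis was possible because the design held a single array.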
